A study of Mus musculus with 2 samples.

Results

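Immediate early and acute stress genes are a set of 35 genes that cells can switch on within minutes of a signal or a stress, here compared between blood-forming progenitors of adult bone marrow and of fetal liver. The members were listed by name and grouped by 9 roles, and they were found on the arrays through the RefSeq accession of each probe. Of the 35 genes, 34 had a probe, out of 20655 genes named in this way. The remaining member, Hspa1b, had no probe with its accession. Egr3 was well above background on neither array, so 33 members could be compared, 32 of them from signals on both arrays and 1, Nr4a3, as a bound.

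The cells were sorted as lineage-negative cells with Sca-1 and c-Kit on their surface (LSK cells), a fraction that holds blood stem cells and multipotent progenitors. The bone marrow sample came from wild-type mice at 8 weeks of age that had received no transplant, of the strain C57BL/6. The fetal liver sample came from wild-type embryos at stage E14.5, likewise without transplantation. No strain was used here for it. Both were sorted fresh by flow cytometry and measured on 1 single-colour Agilent array each. Tissue, age and the preparation and sort of each sample therefore cannot be told apart. There is no replicate check, and no test across samples is possible. The sources used here do not give how many animals were pooled.

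An immediate early gene is transcribed without new protein synthesis, because the factors that activate it, such as SRF, CREB and NF-kB, are already present in the cell. Many of its products are transcription factors that carry the signal on to later genes. Many others act as brakes, by taking up NF-kB, shortening the life of messenger RNAs or stopping signals from receptors, and their own transcripts are mostly short-lived. In blood stem cells of mice, Egr1 and the Nr4a receptors are known as restraints on proliferation.

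Nearly all members had more signal in bone marrow LSK cells, 31 of 33 by the sign of the difference, against 42.2% of all genes. Of the 33 compared, 24 had 2-fold or more signal in bone marrow than in fetal liver, and 0 had 2-fold or more in fetal liver. Among all 13385 genes compared, 8.17% passed 2-fold toward bone marrow and 6.73% toward fetal liver. The members were chosen with earlier results of these data known, so the excess over these shares is not a test of the set. The median difference of the members, fetal liver minus bone marrow on the log2 scale, was -1.73, against 0.11 for all genes. Toward bone marrow, 14 members passed 4-fold. The smallest of these differences was that of Nfkbiz (4.01-fold), and 2.69% of all compared genes had a difference as low or lower. All values are signals relative to the 75th percentile of their own array, called relative signal below. A value after ± is a technical error for 1 array against 1 array, from the errors that Feature Extraction lists for the signals. It is nearly the same for every bright probe, because the listed error was about 10.1% of a typical signal. Of the 14 members past 4-fold, Nfkbiz, Rgs1, Ier5 and Csrnp1 lay within 1 technical error of that line, and Nr4a3 gave a bound.

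**Figure D1:**
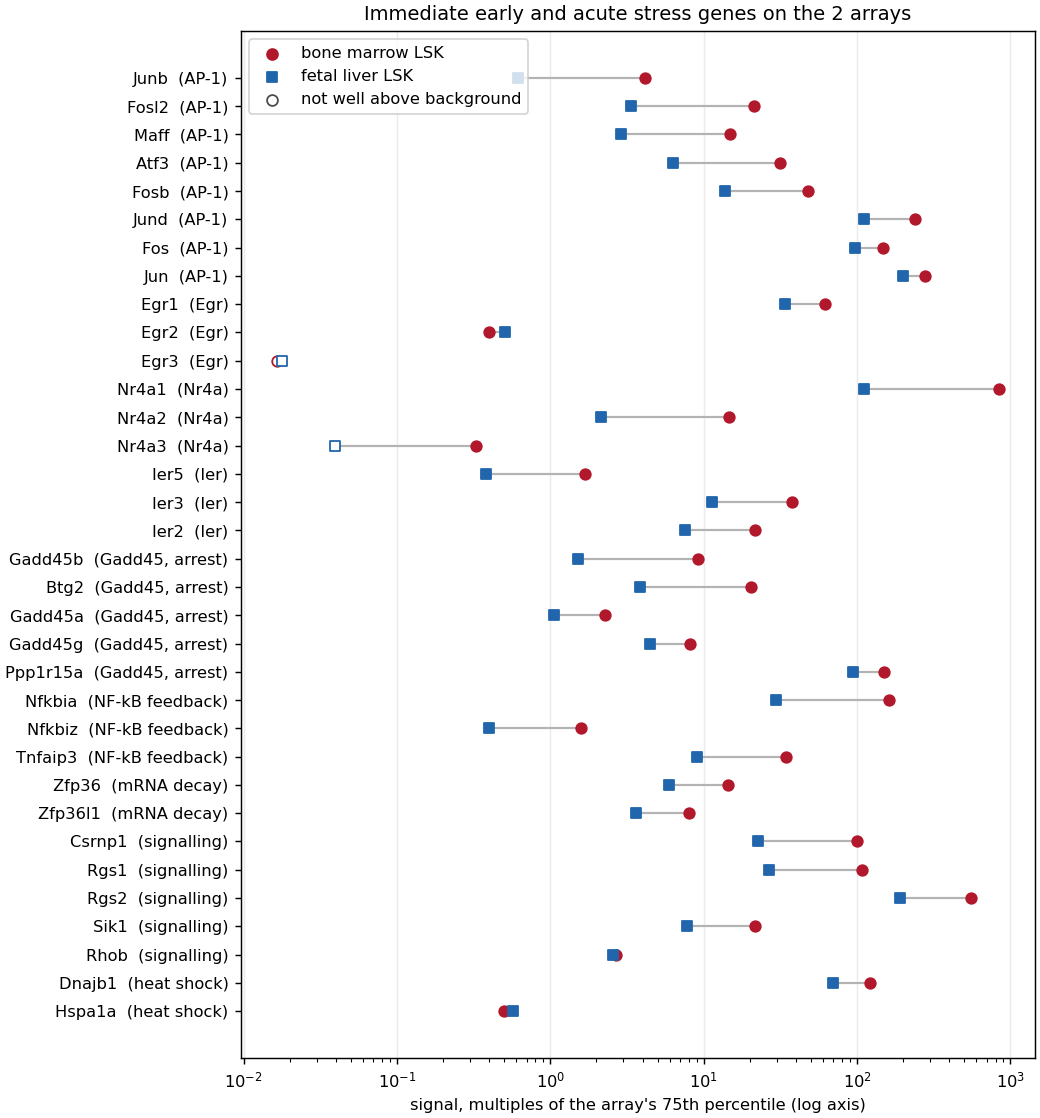
Relative signal of the 34 members with a probe (log axis, multiples of the array's 75th percentile) in bone marrow LSK (red circles) and fetal liver LSK (blue squares), 1 array each, joined by a line per gene, with open symbols where a probe was not well above background. The bone marrow symbol lies to the right for all members but Egr2, Egr3 and Hspa1a.

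The promoters of the members measured on both arrays with the largest differences, Nr4a1, Nr4a2 and Junb, are shown beside those of Fos and Jun, which differed less than 2-fold, so that their sequences can be read next to these values. Each runs 5′ to 3′ from RefSeq (build GRCm38.p6), with 250 bases before and 50 after the annotated start, which is base 251. Capitals mark matches to the motifs named after the sequences.
Nr4a1 promoter, chr15:101266596-101266895, plus strand: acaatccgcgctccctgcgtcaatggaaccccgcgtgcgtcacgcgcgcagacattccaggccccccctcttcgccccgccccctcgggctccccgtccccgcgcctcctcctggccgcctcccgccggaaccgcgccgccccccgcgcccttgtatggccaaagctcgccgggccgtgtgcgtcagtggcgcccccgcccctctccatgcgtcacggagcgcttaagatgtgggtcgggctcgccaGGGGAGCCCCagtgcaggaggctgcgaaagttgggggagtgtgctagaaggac
Nr4a2 promoter, chr2:57123954-57124253, minus strand: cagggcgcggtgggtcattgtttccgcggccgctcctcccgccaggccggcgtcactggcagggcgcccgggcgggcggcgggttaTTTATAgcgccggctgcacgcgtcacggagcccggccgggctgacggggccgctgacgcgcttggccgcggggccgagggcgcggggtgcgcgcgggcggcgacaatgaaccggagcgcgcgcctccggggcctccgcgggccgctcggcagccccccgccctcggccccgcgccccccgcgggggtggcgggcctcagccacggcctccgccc
Junb promoter, chr8:84978699-84978998, minus strand: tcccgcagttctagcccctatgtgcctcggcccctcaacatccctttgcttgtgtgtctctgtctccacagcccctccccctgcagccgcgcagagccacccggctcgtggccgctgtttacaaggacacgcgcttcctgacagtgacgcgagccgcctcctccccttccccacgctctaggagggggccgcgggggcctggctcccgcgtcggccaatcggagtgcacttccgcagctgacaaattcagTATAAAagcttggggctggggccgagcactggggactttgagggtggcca
Fos promoter, chr12:85473640-85473939, plus strand: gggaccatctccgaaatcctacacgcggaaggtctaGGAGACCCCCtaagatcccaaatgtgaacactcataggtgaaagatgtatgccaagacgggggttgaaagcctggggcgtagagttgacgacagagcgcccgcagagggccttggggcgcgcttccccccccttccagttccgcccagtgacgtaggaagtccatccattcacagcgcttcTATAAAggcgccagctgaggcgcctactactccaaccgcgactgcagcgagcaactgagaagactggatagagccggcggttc
Jun promoter, chr4:95052173-95052472, minus strand: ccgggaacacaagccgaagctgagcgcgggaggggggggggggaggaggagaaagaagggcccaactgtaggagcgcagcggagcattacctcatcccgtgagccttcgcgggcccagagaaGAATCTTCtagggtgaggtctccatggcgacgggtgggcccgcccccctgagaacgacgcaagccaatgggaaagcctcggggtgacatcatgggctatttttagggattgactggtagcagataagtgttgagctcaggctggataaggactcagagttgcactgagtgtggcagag

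Both strands were searched for AP-1 (TGACTCA or TGAGTCA), CRE (TGACGTCA), the Egr motif (GCGTGGGCG), the Nr4a motif (AAAGGTCA), the heat shock element (GAANNTTC), the TATA box (TATAAA), and, by name, the CArG box bound by SRF and the kappaB motif bound by NF-kB. The Nr4a1 window held a kappaB match at bases 248 to 257, across the annotated start. In Nr4a2 a TATA box match lay at bases 87 to 92 on the opposite strand, and in Junb one began at base 251. The Fos window held a kappaB match at bases 37 to 46 and a TATA box match at bases 218 to 223, and that of Jun held a heat shock element at bases 123 to 130. No AP-1, CRE, Egr, Nr4a or CArG box letters were present in these 5 windows. Bases outside the windows were not searched, so motifs further upstream would have been missed.

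Promoter windows were at hand for 29 of the 35 members. Egr1, Egr3, Ier2, Nfkbiz, Sik1 and Rgs1 had none. Of these 29 genes, 8 (27.6%) held a kappaB match, against 5.14% of 27025 genes with a window. They were Fos, Fosb, Fosl2, Maff, Nr4a1, Ier3, Nfkbia and Tnfaip3. Fos was the 1 gene of these under 2-fold, and 24 of all 33 compared members (72.7%) passed 2-fold. Those 33 include these 8 genes and also members without a window, so the 2 sets are not alike. Whether the motif goes with the difference was not tested. A TATA box match was present in 9 (31.0%) against 15.7% of all genes, and a heat shock element in 4 (13.8%) against 9.04%, namely Fosl2, Jun, Hspa1a and Hspa1b. CRE matches occurred in Maff, Ppp1r15a and Btg2 (10.3% against 2.03%), CArG boxes in Egr2 and Zfp36 (6.90% against 1.81%), and AP-1 matches in Tnfaip3 and Csrnp1 (6.90% against 5.95%). The Egr motif occurred in Maff (3.45% against 0.71%) and the Nr4a motif in 0 members, against 1.70% of all genes. These matches describe letters in the window and not binding.

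AP-1 is a dimer of a Fos and a Jun family protein, and Atf3 and Maff are related leucine zipper proteins. All 8 members of this role had more signal in bone marrow, 6 of them at least 2-fold, but within the family the differences ran from -0.48 to -2.74. Junb, a Jun protein that restrains myeloid cell expansion in mice, had a relative signal of 4.15 in bone marrow against 0.619 in fetal liver, 6.70-fold apart (-2.74 ± 0.21). Its promoter is among those shown above.

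Fosl2, the Fos family protein Fra-2, stood at 21.4 in bone marrow against 3.35 in fetal liver, 6.39-fold apart. A further Fosl2 probe was dim in fetal liver and gave a bound of at least 4.98-fold in the same direction. Maff, a small Maf protein without an activation domain, was at 14.8 and 2.88, 5.14-fold apart. Atf3, a repressor induced by many stresses, was at 31.4 and 6.30, a difference of -2.32 ± 0.20. Fosb, another Fos family protein, was at 48.0 and 13.8, a difference of -1.80 ± 0.20.

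The members of AP-1 that differed least were bright on both arrays. Fos, the founding Fos protein, had a relative signal of 147 in bone marrow against 96.6 in fetal liver, 1.52-fold apart (-0.60 ± 0.20). It was printed as repeated spots, and the 10 bone marrow spots lay between 142 and 151 while the 9 usable fetal liver spots lay between 92.5 and 100.4. The spots of the 2 arrays did not overlap, and this covers the spread between spots only. Jun was at 276 and 198 (-0.48 ± 0.20). Jund, a Jun protein that resting cells also express, was at 240.2 and 111, a difference of -1.12 ± 0.20, within 1 technical error of 2-fold.

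Nr4a1, Nr4a2 and Nr4a3 encode nuclear receptors that act without a known hormone and are themselves immediate early genes. All 3 passed 4-fold toward bone marrow, Nr4a3 by a bound, as about 2.7% of all compared genes did. Nr4a1 (Nur77) had the largest difference of the members measured on both arrays. Its relative signal was 836 in bone marrow against 110.5 in fetal liver, 7.57-fold apart (-2.92 ± 0.20). Only 0.99% of all compared genes had a difference as low or lower. Nr4a2 (Nurr1) was at 14.6 and 2.13, 6.85-fold apart, and its other probe gave 5.21-fold.

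Nr4a3 (Nor1) was dim, at 0.329 in bone marrow against 0.0397 in fetal liver, where none of its 10 spots was well above background. Its 10 bone marrow spots ran from 0.271 to 0.402 and its fetal liver spots from 0.0179 to 0.0714. These ranges did not overlap, which covers the spread between spots of 1 array each only. Set against the lowest fetal liver signal that counted as above background, Nr4a3 was higher in bone marrow by at least 4.49-fold. Under normexp, a background correction that adds a constant to every spot and pulls dim signals together, it was at -0.57 and no longer passed 2-fold.

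**Figure D2:**
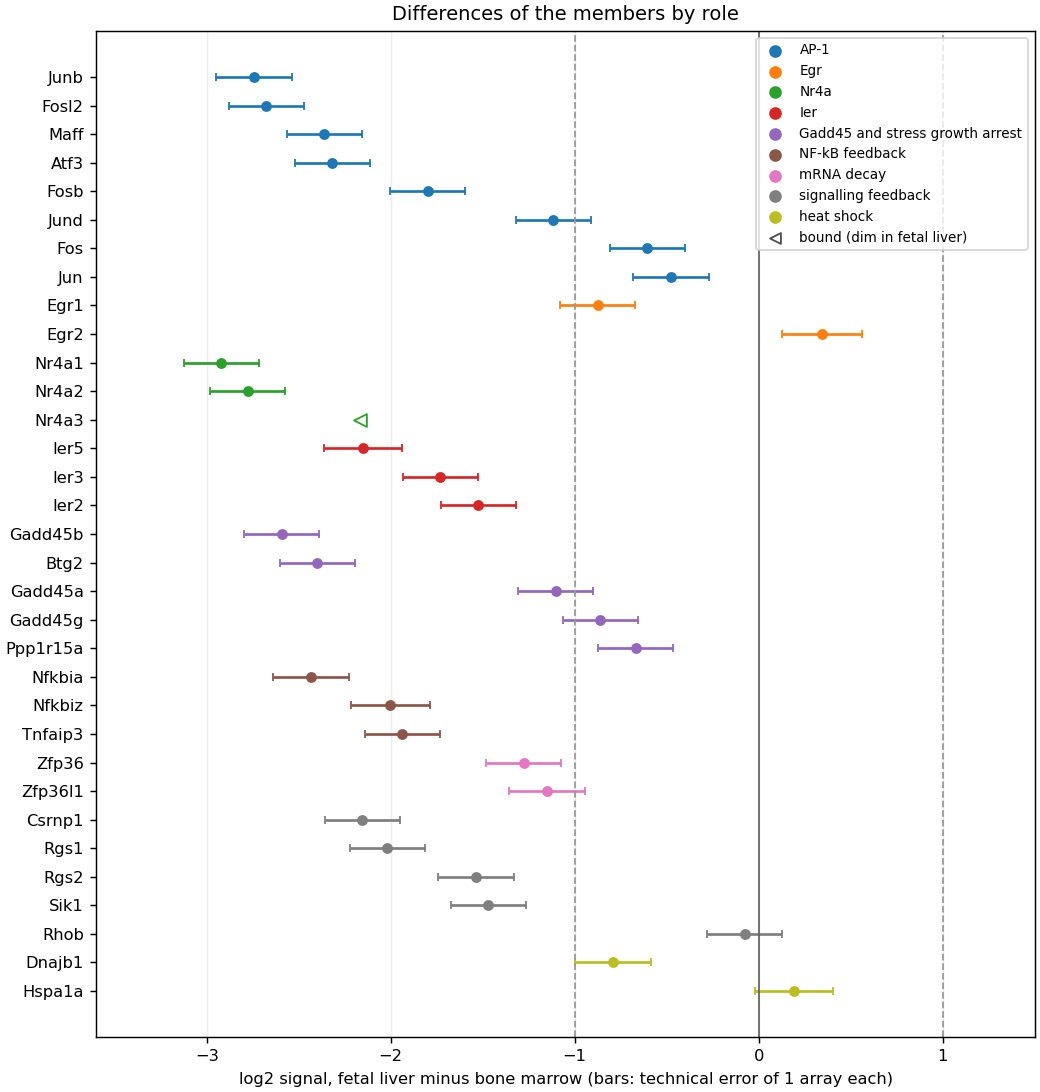
Difference in log2 signal, fetal liver minus bone marrow (horizontal axis), of the 33 compared members, coloured by role, with the technical error of 1 array against 1 array as bars, dashed lines at 2-fold and an open triangle for the bound of Nr4a3. The Nr4a, Ier and NF-kB feedback members all lie left of the dashed line at -1, and the Egr and heat shock members do not reach it.

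The Egr genes, which encode zinc finger factors, did not share this size of difference. Egr1 had a relative signal of 62.2 in bone marrow against 33.9 in fetal liver, a difference of -0.88 ± 0.20, just short of 2-fold. Egr2, a factor also known for myelination and for T cell tolerance, was at 0.398 and 0.506, slightly higher in fetal liver (0.34 ± 0.22). Scaling the arrays by the spike-in controls brought Egr2 to 0.01 and took Egr1 past 2-fold (-1.21). Egr3 was at 0.0165 and 0.0178, both not well above background, and was not compared.

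The Ier genes were named for their rapid induction, and all 3 passed 2-fold toward bone marrow. Ier3 (IEX-1), a regulator of cell survival, was at 37.4 in bone marrow against 11.3 in fetal liver (-1.73 ± 0.20). Ier2, a nuclear protein, was at 21.6 and 7.51 (-1.52 ± 0.20). Ier5, a cofactor of the heat shock response, was at 1.69 and 0.380 by its brighter probe (-2.15 ± 0.21). The other Ier5 probe differed by -0.84, under 2-fold, and the mean of both was -1.49.

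The growth arrest and stress genes split into a pair with large and a trio with small differences. Gadd45b, one of the Gadd45 proteins that activate stress kinases, was at 9.14 in bone marrow against 1.51 in fetal liver, 6.04-fold apart (-2.59 ± 0.20). Btg2, an antiproliferative factor that recruits the deadenylation machinery, was at 20.3 and 3.85 (-2.40 ± 0.20). Gadd45a, a target of p53, was at 2.27 and 1.06 (-1.10 ± 0.21), a difference within 1 technical error of 2-fold, and under normexp it was -0.77 and no longer passed.

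Gadd45g lay on the other side of that line, at 8.11 and 4.46 (-0.86 ± 0.20). The differences of the Gadd45 paralogs thus ran from 1.82-fold to 6.04-fold, all with more signal in bone marrow. Ppp1r15a (GADD34), the phosphatase subunit that ends the translation block of the integrated stress response, was at 149 and 94.0 (-0.67 ± 0.20).

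NF-kB induces its own inhibitors, and the 3 members of this feedback were 3.83-fold to 5.40-fold higher in bone marrow. Nfkbia, which encodes the inhibitor that holds NF-kB in the cytoplasm, was at a relative signal of 160.5 in bone marrow against 29.7 in fetal liver (-2.43 ± 0.20). Nfkbiz, a nuclear member of the inhibitor family, was at 1.58 and 0.396 (-2.00 ± 0.21). Tnfaip3 (A20), a ubiquitin-editing enzyme that stops the pathway, was at 34.6 and 9.04 (-1.94 ± 0.20).

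Zfp36 (tristetraprolin) and Zfp36l1 bind AU-rich elements and speed the decay of messenger RNAs, including those of cytokines. Zfp36 was at 14.4 in bone marrow against 5.94 in fetal liver (-1.28 ± 0.20), and Zfp36l1 at 8.08 and 3.64 (-1.15 ± 0.20). Both were over 2-fold higher in bone marrow, the latter within 1 technical error of that line.

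Among the members that act in signalling, 4 of 5 passed 2-fold toward bone marrow. Csrnp1, a nuclear protein, was at 100.5 in bone marrow against 22.5 in fetal liver (-2.16 ± 0.20). Rgs1 and Rgs2 speed GTP hydrolysis by G proteins and so shorten signals from receptors such as those of chemokines. Rgs1 was at 108 and 26.6 (-2.02 ± 0.20), and Rgs2 at 552 and 190.4 (-1.54 ± 0.20), its other, dim probe at -0.90. Sik1, a kinase that keeps CREB coactivators out of the nucleus, was at 21.5 and 7.75 (-1.47 ± 0.20). Rhob, a small GTPase, was the exception, at 2.69 and 2.55 (-0.08 ± 0.20) and at -0.13 by its other probe.

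Heat shock genes encode chaperones that refold damaged proteins, and neither of the measured members passed 2-fold. Dnajb1, an Hsp40 co-chaperone, was at 121 in bone marrow against 69.6 in fetal liver (-0.79 ± 0.20). Hspa1a, the inducible Hsp70, was low on both arrays, at 0.500 and 0.571 (0.19 ± 0.21), and under spike-in scaling its sign turned (-0.14). The Hspa1a and Hspa1b genes are near-identical neighbours, so the Hspa1a probe may also have bound Hspa1b transcripts.

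Across the roles, the medians were -2.78 for Nr4a, -2.06 for AP-1, -2.00 for NF-kB feedback, -1.73 for Ier, -1.54 for signalling, -1.21 for messenger RNA decay, -1.10 for growth arrest, -0.30 for heat shock and -0.27 for Egr. Those for messenger RNA decay, heat shock and Egr rest on 2 compared genes each. Members that differed by less than 2-fold numbered 9, and they were Fos, Jun, Egr1, Egr2, Gadd45g, Ppp1r15a, Rhob, Hspa1a and Dnajb1. Egr1 and Gadd45g lay within 1 technical error of 2-fold from below, and Jund, Gadd45a and Zfp36l1 from above.

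**Figure D3:**
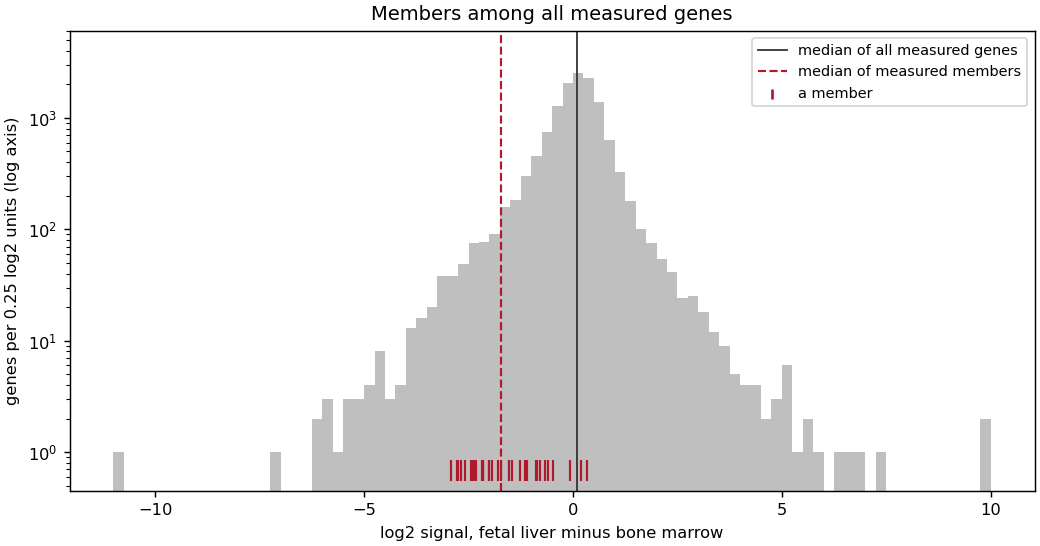
Histogram of the difference in log2 signal, fetal liver minus bone marrow, of all 13385 compared genes (log axis for the number of genes), with a red tick for each of the 33 compared members. The members lie between -2.92 and 0.34, with their median at -1.73 (dashed line) and that of all genes at 0.11 (solid line).

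Some members are neighbours in the genome, and their intervals were looked at after their values had been seen. On chromosome 8, Ier2 and Junb are separated by 23 annotated genes, of which 17 could be compared. Of these 17, 1 passed 2-fold toward bone marrow and 1 toward fetal liver, with a median of 0.22. On chromosome 1, Rgs1 and Rgs2 are separated by 5 annotated genes, and none of those could be compared.

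Lists of genes that switch immediate early genes on, which also hold some inhibitors, did not stand apart in passing 2-fold toward bone marrow. The shares were 8.33% for SRF and CREB activators, 0% for MAP kinases and 10% for NF-kB genes, against 8.17% of all genes. By sign, most genes of each list had more signal in bone marrow. The shares below 0 were 66.7% for SRF and CREB activators, 61.5% for MAP kinases and 80% for NF-kB genes. Among all genes the share was 42.2%, with a median of 0.11. Of 12 SRF and CREB activators and cofactors compared, 1 passed 2-fold toward bone marrow and 0 toward fetal liver, with a median of -0.08. That gene was Crem, a CREB relative with an inducible repressor isoform, at a relative signal of 2.71 in bone marrow against 0.854 in fetal liver (-1.67 ± 0.21). Of 13 MAP kinases and their kinases, 0 passed 2-fold in either direction (median -0.11). Of 10 NF-kB subunits, kinases and further inhibitors, 1 passed 2-fold toward bone marrow (median -0.58), namely the subunit Relb (-1.28 ± 0.21).

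Of 9 other AP-1 and leucine zipper genes compared, 4 passed 2-fold toward bone marrow and 1 toward fetal liver (median -0.78). Fosl1, a Fos family protein, was higher in bone marrow by at least 7.42-fold from a dim signal of 0.544, Batf2 was at -1.71, and Batf3, a factor of dendritic cells, was higher in fetal liver by at least 3.99-fold. Of 5 corepressors, 1 passed, the Egr repressor and Egr target Nab2, at 19.2 and 5.89 (-1.70 ± 0.20). Of 19 paralogs of members, such as those of Ier, Csrnp, Zfp36, Btg, Rgs, Sik and Ppp1r15, 6 passed 2-fold toward bone marrow and 1 toward fetal liver (median -0.34). Among them was Btg1, an antiproliferative relative of Btg2, at 68.3 and 15.1 (-2.18 ± 0.20), while Rhoc, a relative of Rhob, went the other way at 1.30 and 4.98 (1.94 ± 0.21), and Rgs16 was higher in bone marrow by at least 3.40-fold.

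Heat shock factors and chaperones outside the members had a median of 0.09, with 3 of 19 past 2-fold toward bone marrow and 0 toward fetal liver. Bag3, a co-chaperone induced by stress, was at 3.20 in bone marrow against 0.702 in fetal liver (-2.19 ± 0.21), Dnajb4 at -1.61 and Hspa2 at -1.31. Under spike-in scaling the median of all genes moved from 0.11 to -0.23, and list medians move with it, so the positive sign of this list median is not retained there.

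**Figure D4:**
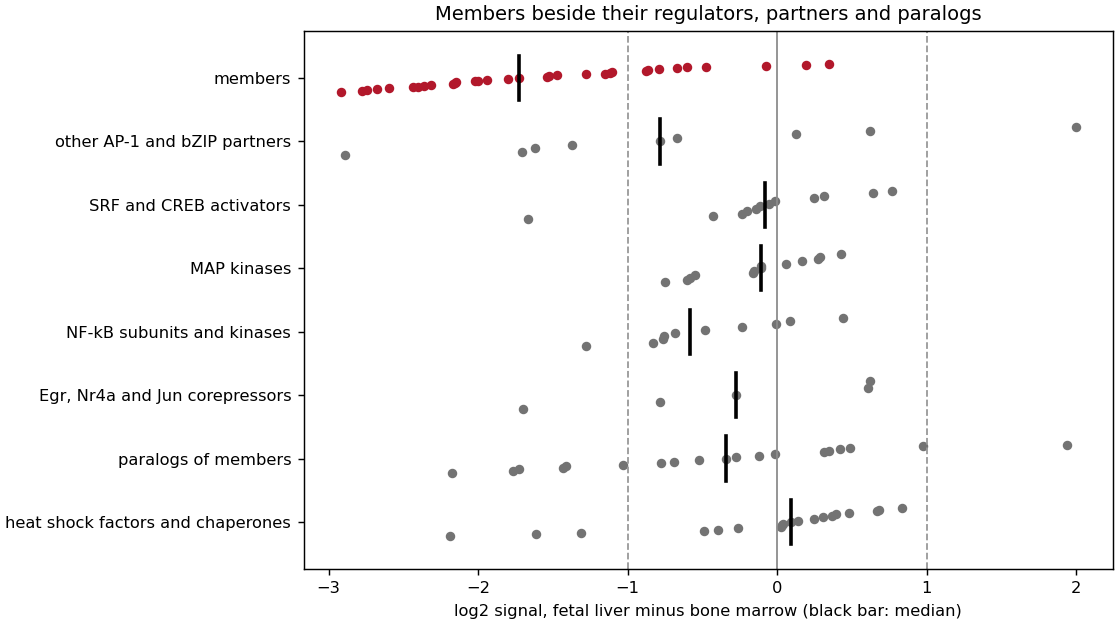
Difference in log2 signal, fetal liver minus bone marrow, of the 33 compared members (red) and of the genes of 7 related lists (grey), 1 point per gene, with each median as a black bar and dashed lines at 2-fold. The median is -1.73 for the members and lies between -0.78 and 0.09 for the other lists.

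As to the cells themselves, Kit had relative signals of 22.8 and 22.9, and Ly6a, the gene of Sca-1, had relative signals of 21.5 in bone marrow against 4.43 in fetal liver. The 9 stem and progenitor genes checked were all above background on both arrays. Of the lineage genes, Cd8a and Ms4a1 were well above background on neither array, while Cd3e, Cd4 and Itgam were above background on both, each under 2-fold apart. In bulk samples, fewer cells with a transcript and less of it per cell cannot be told apart.

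Some markers of neutrophils moved with the members. Of 12 compared, 9 were below 0 and 3 above, and 7 passed 2-fold toward bone marrow, among them Chil3 (-4.67), Retnlg (at least 13.5-fold) and Ngp (-3.67). Those above 0 were Cxcr2 (0.93), S100a8 (0.15) and, by a bound of 1.66-fold, Fcnb, while S100a9 was at 77.3 and 64.4. The summed relative signal of the 13 with a probe was 166 in bone marrow against 118 in fetal liver. Mmp9 was well above background on neither array. Of 8 T and NK cell markers compared, 3 passed 2-fold toward bone marrow and 1 toward fetal liver. Their summed relative signal was 84.3 and 28.6, in bone marrow mostly from Nkg7, and Cd8a and Ncr1 were not well above background.

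Erythroid markers went the other way, with 4 of 8 past 2-fold toward fetal liver and summed relative signals of 101 and 772, of which Hbb-bt gave 94.9 and 755. Of 9 monocyte and macrophage markers, 1 passed 2-fold in each direction, with sums of 33.6 and 37.9. Of 3 B cell markers compared, 0 passed, and Cd79a, Ms4a1, Pax5, Igll1 and Ebf1 were well above background on neither array. Hepatocyte markers passed in 2 of 6 in bone marrow, with sums of 22.1 and 18.2, and endothelial and stromal markers in 2 of 5 in fetal liver, with sums of 69.4 and 101. Sex-linked genes differed too. The Y-linked Ddx3y and Eif2s3y were not well above background in bone marrow, and had fetal liver signals at least 21.3-fold and 53.5-fold those of bone marrow. Xist was at 4.02 in bone marrow against 0.983 in fetal liver, 4.09-fold higher in bone marrow. A difference in sex between the samples cannot be told apart from that of group. The part of other cell types and of sex-linked differences in the members' differences was not tested.

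Some calls depended on the processing. Scaling by the 8 spike-in controls above background took 27 members past 2-fold toward bone marrow, the 24 together with Dnajb1, Egr1 and Gadd45g, and 0 toward fetal liver, where the shares of all genes were 13.0% and 3.83%. It changed the split of all genes from 1093 toward bone marrow and 901 toward fetal liver to 1746 and 512. Under normexp 23 members passed toward bone marrow and 0 toward fetal liver, with 4.53% and 2.83% of all genes. Gadd45a and Nr4a3 were no longer among them and Egr1 was added. A threshold of 3-fold left 17 members toward bone marrow and 0 toward fetal liver, with 4.03% and 2.64% of all genes.

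**Figure D5:**
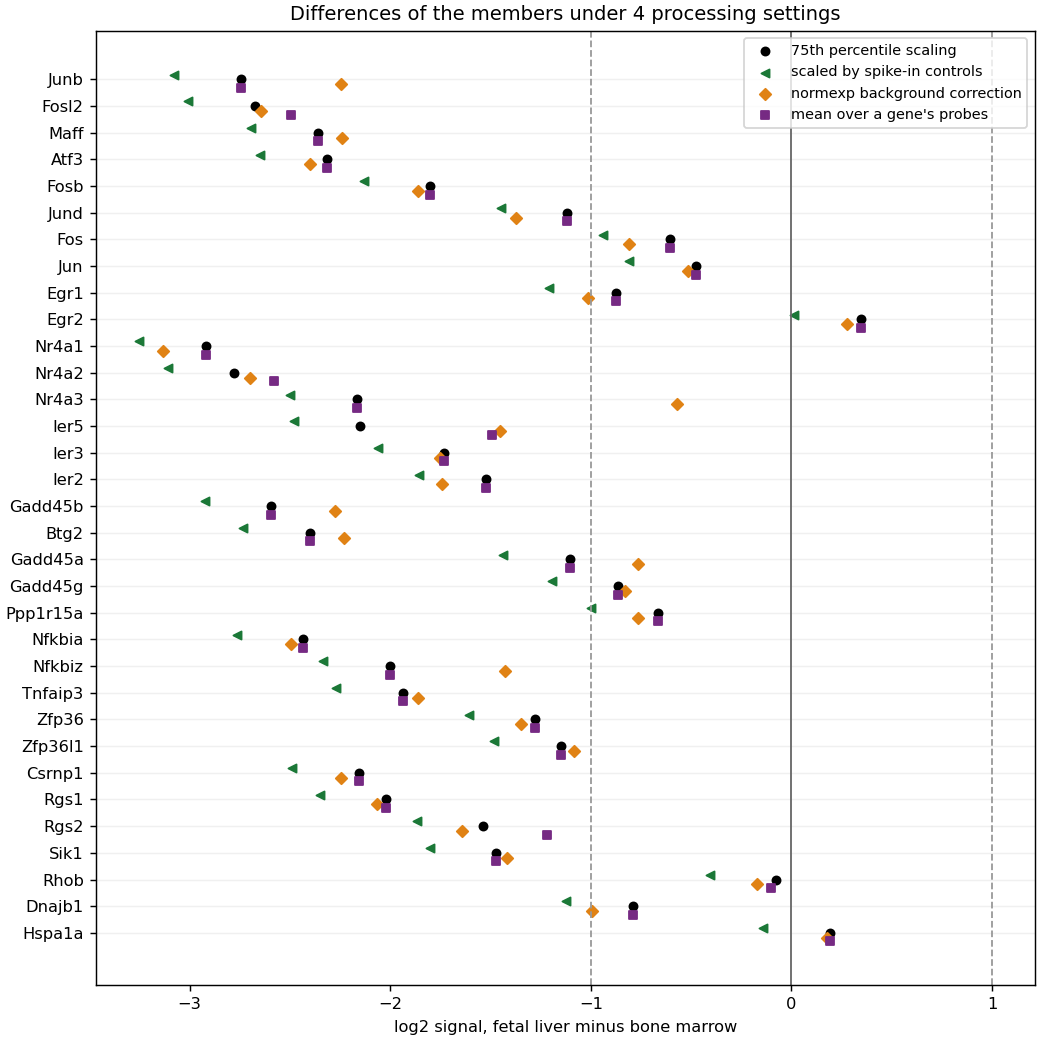
Difference in log2 signal, fetal liver minus bone marrow, of the 33 compared members under the 75th percentile scaling (black), spike-in scaling (green), normexp background correction (orange) and the mean over a gene's probes (purple). Spike-in scaling moves every member to the left by 0.33, and normexp moves Nr4a3 from -2.17 to -0.57.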

How the data were processed

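Per the file headers, the authors' deposited spot intensity values are linear signals from which Feature Extraction 10.7.1.1 had removed background and spatial trend, unscaled between arrays. Flags and spot types come from the same software, per the file headers. The authors' deposited value table is a linear ratio, made from the processed signals by dividing each array by a constant (178.6 and 133.9), with column medians of 0.0589 and 0.0604, neither logged nor centred. The sources used here do not say how these constants were chosen.

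Outlier spots were left out, repeated spots averaged, and log2 signals set relative to each array's 75th percentile (178.9 in bone marrow and 134.0 in fetal liver). No spot was saturated. Probes well above background made up 47.4% and 46.4%. Of 55664 probes, 27226 were named by unversioned RefSeq accession (GRCm38.p6 table, used for names and gene order, as the array design is on mm9). A gene took its probe with the highest mean signal and was compared when above background on either array. A dim side was raised to the lowest signal above background (relative signals of 0.0691 and 0.0733), and the resulting bound is written as at least N-fold. No test was possible with 1 array per group, and the number of arrays limits the precision. Each array was on a slide of its own, so an effect of slide cannot be told apart from that of group. The SD of a log2 difference between single spots had a median of 0.09 over 247 probes printed repeatedly.

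All members are named. Of other lists at most the 3 largest differences past 2-fold are named, plus Kit and Ly6a. Genes that a limit or a check of the cells turns on, and Xist, Ddx3y and Eif2s3y, were chosen after their values were seen. Promoters shown are those of the 3 largest measured differences outside chromosome 18, with Fos and Jun. The members and lists were chosen with earlier results of these data known. Python 3.11.15, numpy 2.4.6, pandas 2.3.3 and limma 3.58.1 in R 4.3.3 were used, tested on simulated data. Normexp (offset 50) ran on median spot signals. Some genes of the marker lists are not reported by name here.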

Additional observations from a re-analysis of the deposited data

How the results depend on the processing

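The 24 members past 2-fold toward bone marrow were the same genes under median scaling, quantile normalization, the mean over a gene's probes, no filter on dim probes, the authors' deposited ratio and the median over repeated spots. Of all 13385 genes, 1147 passed 2-fold toward bone marrow and 841 toward fetal liver under median scaling. Quantile normalization gave 1144 and 849, the deposited ratio 1091 and 932, and the median over repeated spots 1092 and 901. The mean over a gene's probes gave 1082 and 866 of 13386 genes, and no filter gave 1658 and 1685 of 20655. In all 10 alternatives run, 0 members passed 2-fold toward fetal liver, and the count toward bone marrow lay between 17 (at least 3-fold) and 27 (spike-in controls). The median difference of the members, -1.73, was -2.06 under spike-in scaling, -1.45 under normexp and -1.52 with the mean over a gene's probes, and by construction these change the scale, the dim signals and the probes used. Spike-in scaling shifted all 33 members by 0.33, the amount by which the spike-in controls differed after percentile scaling. Normexp moved 10 of 33 members by more than the median technical error of 0.21, among them Nr4a3 and Gadd45a, which no longer passed. Requiring signal above background on both arrays left 32 members, of which 23 passed, since Nr4a3 has only a bound. Of all 12251 genes left there, 840 passed toward bone marrow and 704 toward fetal liver. The planned naming by the array's gene name column was not run, because the files used here have no such column. No paired analysis was possible because each group has 1 array. Dim signals left Nr4a3 with only a bound and Egr3 with no comparison. Normexp also moved members above background on both arrays toward 0. Ier5 went from -2.15 to -1.45, Nfkbiz from -2.00 to -1.43, Junb from -2.74 to -2.25 and Gadd45b from -2.59 to -2.27. Normexp moved some brighter members the other way, Fos from -0.60 to -0.81 and Jund from -1.12 to -1.37. Likewise Ier2 went from -1.52 to -1.74 and Nr4a1 from -2.92 to -3.13.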
